A study of Sus scrofa with 6 samples.

Results

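IPEC-1 is a non-transformed epithelial cell line from the jejunum and ileum of newborn piglets, and the 6 GeneChip Porcine Genome Arrays described here follow it over 3 passages. The sample labels give the passage numbers P109, P111 and P113, each with 1 array of an air-liquid interface culture (ALI) and 1 array of a submerged membrane culture (SMC). All 6 of the 6 arrays of the series were used, and the question was which genes moved with passage in both cultures. In ALI the cells carried a thin film of medium on the apical side, and in SMC they stood under a column of medium. All cultures were grown on transwell membranes, with epidermal growth factor in the medium, and serum was withdrawn stepwise before a long serum-free period. IPEC-1 is a single cell line. The methods speak of independent experiments, and each passage was taken as 1 of them. The labels name jejunum as the source, while their free-text description names liver.

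Serial passage means that cells are detached, diluted and seeded again, so that a higher passage number stands for more rounds of growth and selection in the dish. Epithelial lines can drift over such rounds in growth control, differentiation and stress handling. Immediate early genes such as FOS, JUN and EGR1 answer within a short time to growth factors, serum, medium change or handling, and their products are transcription factors that switch on later genes. EGF family ligands such as AREG and HBEGF act on the EGF receptor of the same or neighbouring cells, and the urokinase system of PLAU and its inhibitors works in epithelial migration and wound closure.

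Markers of epithelium were mostly bright. The log2 levels of CDH1, EPCAM, KRT8, KRT18, KRT19, OCLN and CLDN4 lay at the 96.1 to 99.6 percentile of their arrays, whereas the probe set of TJP1, another tight junction gene, lay at or below the 21.9 percentile. The enterocyte proteins FABP1 and FABP2 lay at or below the 7.76 percentile, and VIL1, the brush border protein villin, lay between the 41.6 and 55.0 percentile. Of other enterocyte genes, APOA4 lay between the 21.5 and 27.1 percentile, ANPEP between 34.2 and 39.0, and HNF4A between 55.2 and 63.2. LUM, CDH5 and PTPRC, markers of fibroblasts, endothelium and leukocytes, lay at or below the 18.7 percentile. CD14 and CD3E, of monocytes and T cells, and VWF, of endothelium, lay between the 27.7 and 46.6 percentile, while COL1A2, DES and PECAM1, of fibroblasts, muscle and endothelium, lay between the 49.6 and 68.9 percentile. The median log2 value per array was 6.33 to 6.38. The gap between 3′ and 5′ probe sets of 10 porcine control pairs, a sign of RNA integrity, was 0.54, 0.62 and 0.82 log2 units in ALI at P109, P111 and P113, and 0.55, 0.60 and 0.70 in SMC. It was therefore widest at P113 in both cultures, by 0.22 log2 units over P109, with an exact two-sided permutation p of 0.0556 over 36 arrangements of the passages within cultures, the smallest p these arrays allow. The gap was wider at P113 than at P109 in both cultures for 6 of the 10 pairs, and its part in the results below was not tested. In RNA from whole cultures, fewer cells of a type and less RNA per cell cannot be told apart.

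In a principal component analysis over 23999 probe sets the first component held 41.6% of the variance and separated ALI from SMC. The second held 29.4% and set the P113 arrays of both cultures apart from the earlier ones. Its scores were -28.2 in ALI and -21.6 in SMC at P113, against 10.9 and 15.1 at P109. The P111 arrays had 22.7 in ALI and 1.16 in SMC, so that P111 lay beyond P109 in ALI and between both other passages in SMC.

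**Figure D1:**
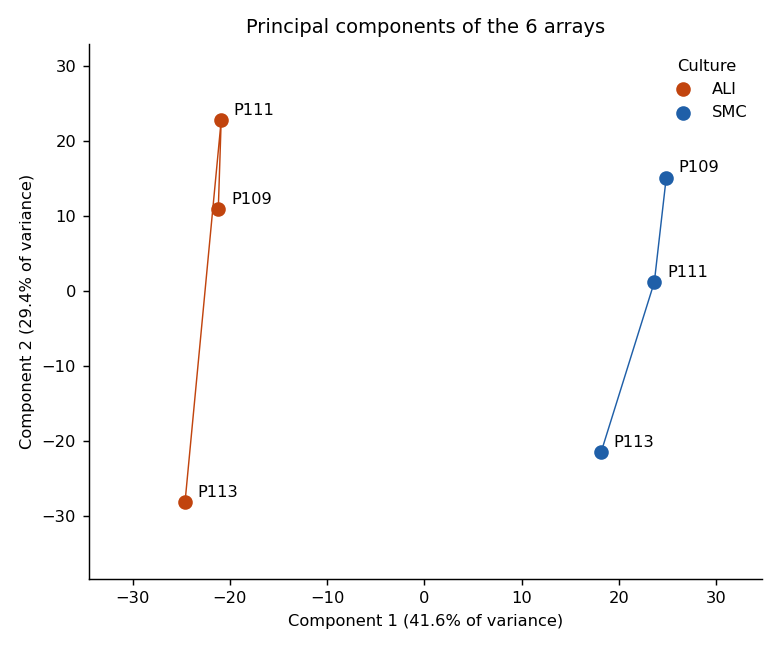
Scores of the 6 arrays on the first 2 principal components of the log2 values of 23999 probe sets, with the share of variance on each axis. Points are arrays labelled by passage, coloured by culture, and lines join the passages of 1 culture; the P113 arrays lie lowest in both cultures.

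Passage was fitted with limma as a linear term with the culture type as block, and the coefficient was scaled to the change from P109 to P113. No probe set reached an adjusted p under 0.05 (0 of 23999, 0%; lowest adjusted p 0.0613), while 1784 (7.43%) were higher and 1413 (5.89%) lower at P113 at an unadjusted p under 0.05. The linear fit counts any bend at P111 as error. With passage as a factor, where the sizes are the same and the bend is not counted as error, limma called 43 probe sets (0.179%) higher and 39 (0.163%) lower at P113 than at P109. Among the 6765 genes with a symbol of their own these were 9 higher (0.133%) and 5 lower (0.0739%). The choice between both fits thus decides whether any gene is called. The error of the factor fit is the disagreement between ALI and SMC within passages, with 2 residual degrees of freedom. Each passage was taken as 1 experiment, so p-values of the contrast of P113 with P109 do not measure the spread between experiments. Leaving out the ALI array of P111 from the linear fit gave 105 higher and 74 lower probe sets, whereas leaving out any of the other 5 arrays gave 0. An exact permutation test of 1 gene over these arrays cannot go below 0.0556.

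A count without a test looked for changes of at least 1.5-fold in the same direction in each culture. It found 239 probe sets higher (0.996%) and 152 lower (0.633%) at P113, whereas 10 (0.0417%) moved that far in opposite directions. Among genes, 53 (0.783%) were higher and 43 (0.636%) were lower in both cultures. Across all probe sets the ALI change and the SMC change correlated at 0.47, and across those with a mean log2 value above 6 at 0.55. Probe sets are not independent, and both changes share the labelled passage and whatever was done with the cells and arrays of that passage. Of the 391 probe sets that moved in both cultures, 256 carried no single gene symbol. Those carry no name here, and the genes described below are a minority of what moved.

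**Figure D2:**
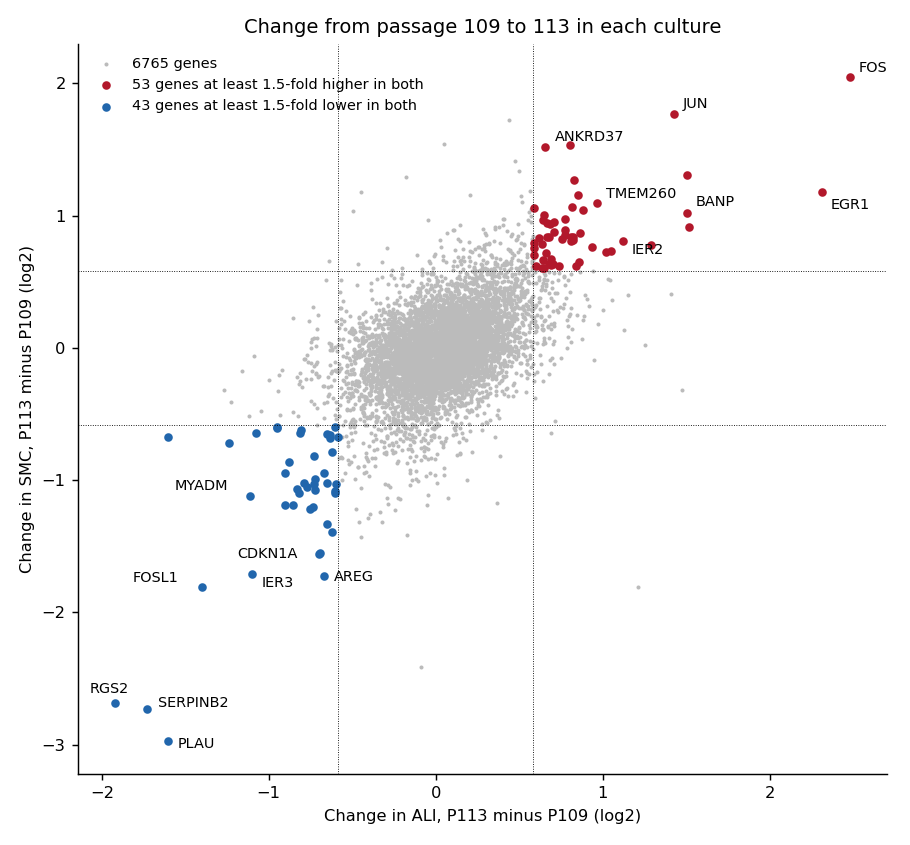
Change of 6765 genes from P109 to P113 in log2 units, in ALI on the horizontal and in SMC on the vertical axis, 1 point per gene with 1 array per passage and culture. Dotted lines mark 1.5-fold; 53 genes were beyond it upward in both cultures (red) and 43 downward (blue), with FOS, EGR1 and JUN at one end and PLAU, RGS2 and SERPINB2 at the other.

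Immediate early transcription factors stood at the head of the higher genes. FOS, a subunit of the transcription factor AP-1, had log2 levels of 9.36, 10.02 and 11.84 in ALI at P109, P111 and P113, and of 10.33, 9.86 and 12.38 in SMC. Both P113 arrays were above all 4 earlier ones, and most of the difference lay between P111 and P113. The change from P109 to P113 was 2.26 log2 units (standard error 0.48), a 4.80-fold difference, with an adjusted p of 0.152 in limma's linear fit and 0.0241 in its contrast of P113 with P109.

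JUN, the partner of FOS in AP-1, was also highest at P113. Its log2 levels were 10.55, 10.51 and 11.97 in ALI and 10.71, 11.14 and 12.48 in SMC, so that both P113 arrays were the highest. The change of JUN was 1.60 (standard error 0.28; limma's adjusted p = 0.133 in the linear fit and 0.0182 in the contrast). EGR1, a zinc finger factor induced by growth signals, measured 8.85, 9.76 and 11.17 in ALI and 10.49, 9.95 and 11.66 in SMC. EGR1 was thus 1.74 log2 units higher at P113 (standard error 0.40), with an adjusted p of 0.0607 from limma's contrast that missed the threshold. IER2, another early response gene, measured 9.17, 9.31 and 10.29 in ALI and 9.78, 9.63 and 10.59 in SMC, a change of 0.96 (adjusted p = 0.0486 from limma's contrast). ZFP36, which binds AU-rich messenger RNAs and speeds their decay, was 1.03 log2 units higher (adjusted p = 0.0690 from limma's contrast), with 1.29 in ALI and 0.78 in SMC. DUSP1, a phosphatase that turns off MAP kinases, differed by 0.94 in ALI and 0.58 in SMC.

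FOSL1, an AP-1 subunit of the FOS family, went the other way. Its log2 levels were 6.67, 6.79 and 5.27 in ALI and 7.98, 6.77 and 6.17 in SMC, lowest at P113 in both cultures. The change of FOSL1 was -1.61 (standard error 0.29; limma's adjusted p = 0.134 in the linear fit and 0.0607 in the contrast). A second FOSL1 probe set of like brightness differed by -0.26 and a dimmer one by -0.36, so the size for this gene is uncertain. IER3, an early gene tied to survival signals, measured 9.35, 8.61 and 8.25 in ALI and 10.73, 9.39 and 9.02 in SMC, and it was lower at each later passage in both cultures. The change of IER3 was -1.40 (standard error 0.22; limma's adjusted p = 0.110 in the linear fit and 0.0418 in the contrast).

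The EGF receptor ligands HBEGF and AREG lay on the lower side with FOSL1 and IER3. HBEGF, heparin-binding EGF-like growth factor, measured 6.99, 6.41 and 6.23 in ALI and 7.64, 6.53 and 6.43 in SMC, a change of -0.98 (limma's adjusted p = 0.154 in the linear fit). AREG, amphiregulin, measured 6.91, 6.32 and 6.24 in ALI and 7.91, 6.32 and 6.18 in SMC, a change of -1.19 (adjusted p = 0.193 from limma). For both ligands the P109 arrays were the highest and P111 was already close to P113. TGFA, the third ligand of this family on the list, differed by 0.14 in ALI and 0.31 in SMC, and their receptor EGFR by 0.21 and -0.03.

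Of the 21 measured members of the list of immediate early genes and growth factor response, 4 were at least 1.5-fold higher in both cultures (FOS, JUN, EGR1 and IER2) and 4 at least 1.5-fold lower (FOSL1, IER3, HBEGF and AREG). In limma's contrast of P113 with P109, 3 were called higher and 1 lower, against 0.133% and 0.0739% of all genes. Like all 28 lists here, this one was written with earlier results of these data known, so such shares are no test of a list. The median change of the list was 0.02 log2 units, beside 0.00 for all genes (0.0027 before rounding), and it lay between -0.06 and 0.09 when single arrays were left out. MYC, the growth-promoting transcription factor, is the member with the most unequal course. It measured 8.89, 9.38 and 8.80 in ALI and 10.67, 9.14 and 8.25 in SMC, a change of -0.09 in ALI and of -2.41 in SMC. The difference between the cultures for MYC had an unadjusted p of 0.00198 and an adjusted p of 1 in limma's interaction test.

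**Figure D3:**
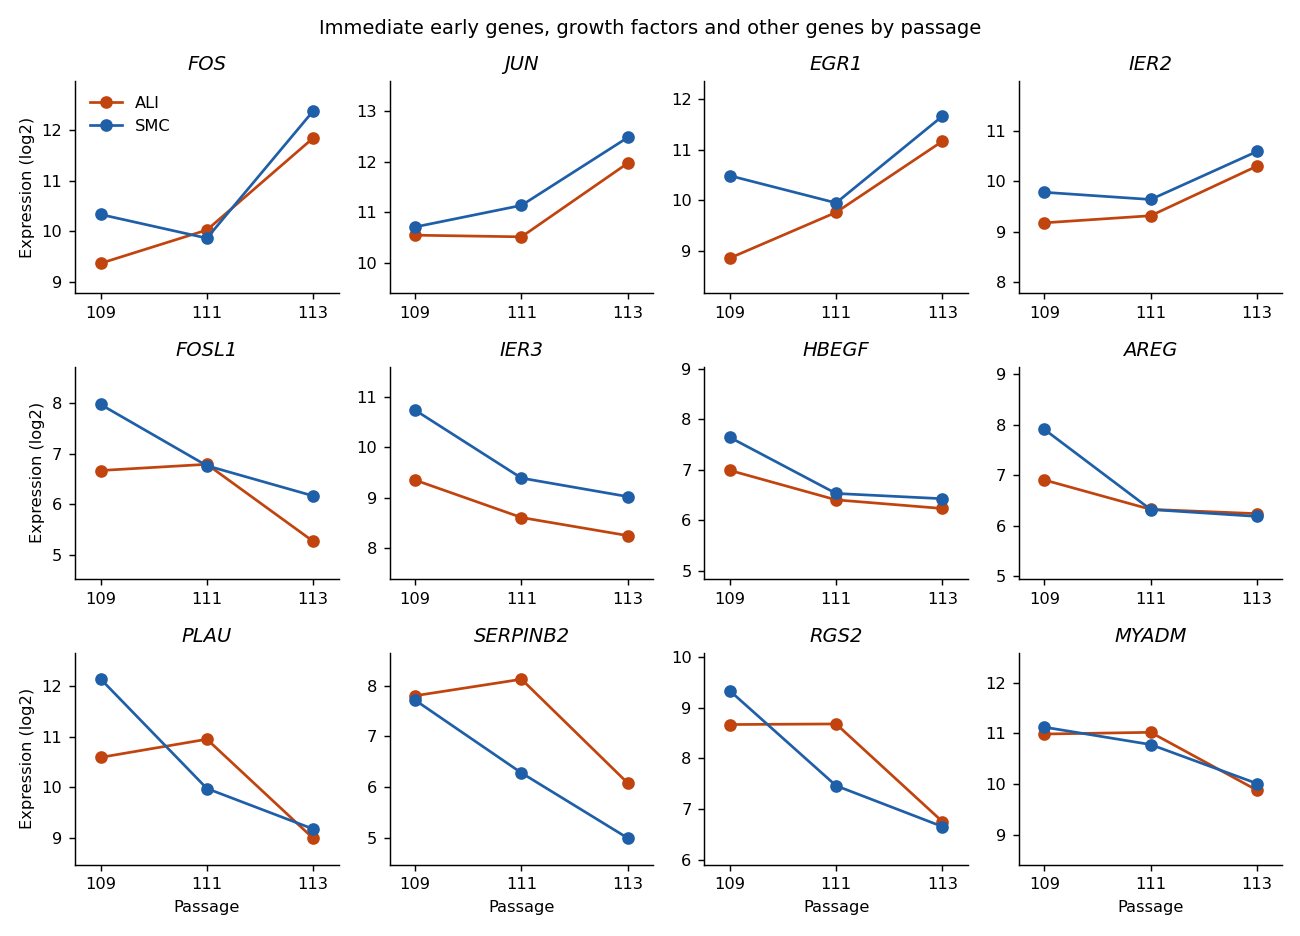
Log2 expression of 12 genes at P109, P111 and P113, 1 array per point, in ALI (orange) and SMC (blue); each panel spans the same number of log2 units. FOS, JUN, EGR1 and IER2 are highest at P113 in both cultures, while the other 8 genes are lowest there.

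Among the lower genes, the protease PLAU and the inhibitor SERPINB2 had wide differences. PLAU, urokinase plasminogen activator, measured 10.59, 10.95 and 8.99 in ALI and 12.15, 9.98 and 9.18 in SMC. The P113 arrays of PLAU were the lowest of their cultures, and the change was -2.29 (standard error 0.47), 4.88-fold lower at P113 than at P109, with an adjusted p of 0.150 in limma's linear fit and 0.0864 in its contrast. SERPINB2, plasminogen activator inhibitor of the serpin family, measured 7.81, 8.13 and 6.08 in ALI and 7.72, 6.28 and 4.99 in SMC. SERPINB2 differed by -2.23 (standard error 0.40; limma's adjusted p = 0.135 in the linear fit and 0.0486 in the contrast).

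RGS2, a regulator that shortens G-protein signals, measured 8.67, 8.68 and 6.75 in ALI and 9.34, 7.46 and 6.65 in SMC. Its change was -2.30 (standard error 0.36; limma's adjusted p = 0.114 in the linear fit and 0.0515 in the contrast), although both other RGS2 probe sets, which were dimmer, differed by -0.12 and -0.11. In PLAU, SERPINB2 and RGS2 alike, P111 stayed near or above P109 in ALI, whereas in SMC P111 had already dropped below P109. MYADM, a membrane protein of the myeloid differentiation marker family, measured 10.99, 11.02 and 9.88 in ALI and 11.12, 10.78 and 10.01 in SMC. The change of MYADM was -1.11 (limma's adjusted p = 0.0472 in the contrast), and 3 dimmer MYADM probe sets differed by -0.36, -0.30 and -0.22. TNFRSF12A, the receptor of the cytokine TWEAK, measured 10.49, 10.02 and 9.70 in ALI and 10.65, 10.01 and 9.63 in SMC. It was lower at each passage, with a change of -0.90 (standard error 0.13; limma's adjusted p = 0.0999 in the linear fit and 0.0486 in the contrast).

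Other genes at least 1.5-fold lower in both cultures had various roles. CDKN1A, the cell cycle inhibitor p21, differed by -0.69 in ALI and -1.55 in SMC, and SFN, the 14-3-3 protein stratifin that is also a p53 target, by -0.62 and -1.39. SOX9, a transcription factor of crypt cells, differed by -0.70 and -1.56. CFL2, an actin-severing cofilin, differed by -0.73 and -0.81. TAGLN, an actin-binding protein induced by TGF-beta, differed by -1.24 and -0.72. ACTG2, smooth muscle gamma actin, lay on the other side at 0.77 and 0.89, although its second, dimmer probe set differed by -0.81. None of these 6 was called in either fit, with limma's adjusted p from 0.0532 to 0.147 in the contrast. CDKN1A belongs to the list of cell cycle inhibitors, p53 targets and senescence genes, which went no one way. Of its 20 measured members, 10 lay above and 10 below 0, and the median was 0.05. At an unadjusted p under 0.05, 3 (15%) were higher and 3 (15%) lower, beside 7.73% and 6.08% of all genes. The higher ones were SESN1, a stress-induced sestrin, at 0.76 in ALI and 0.30 in SMC, the cell cycle inhibitor gene CDKN1B at 0.33 and 0.53, and TP53I3, a p53 target, at 0.58 and 0.28. Beside CDKN1A the lower ones were CDKN2B, another cell cycle inhibitor gene, at -0.42 and -0.31, and GADD45B, a stress sensor, at -0.74 and -0.18. Without the ALI array of P113 no member was higher at that p, and without the ALI array of P109 only 1 was lower.

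The remaining genes called higher in the contrast were of mixed function. BANP, a nuclear protein that binds unmethylated CpG-containing motifs, measured 7.32, 8.06 and 8.83 in ALI and 7.72, 7.86 and 8.74 in SMC, a change of 1.26 (limma's adjusted p = 0.0999 in the linear fit and 0.0472 in the contrast). TMEM260, a transmembrane protein, measured 6.76, 7.06 and 7.72 in ALI and 6.52, 6.88 and 7.62 in SMC. Its change was 1.03 (standard error 0.14; limma's adjusted p = 0.0418 in the contrast). Both genes were higher at each later passage in both cultures. KIAA0586, a protein needed for primary cilia, differed by 0.82 in ALI and 0.84 in SMC, NT5DC1 by 0.85 and 1.15, TRIM52 by 0.81 and 0.84, and LOC100156073 by 1.52 and 0.92. Those 4 had adjusted p-values of 0.0486 each in limma's contrast. Both other TRIM52 probe sets, which were dimmer, differed by 0.39 and 0.06 on average.

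Genes with the lowest p in the linear fit that were called in neither fit included organelle and signaling genes. MTFMT, which formylates the initiator methionyl-tRNA of mitochondria, differed by 0.82 in both ALI and SMC. ATG4C, a protease of autophagy, differed by 0.81 in both, while its other, dimmer probe set differed by -0.24 in ALI and 0.50 in SMC. CEPT1, which makes phosphatidylcholine and phosphatidylethanolamine, differed by 0.67 in ALI and 0.94 in SMC, and ANKRD10 by 0.62 and 0.83. IL6, the proinflammatory cytokine, measured 6.87, 7.06 and 7.55 in ALI and 7.01, 7.53 and 7.84 in SMC, a change of 0.76 (standard error 0.13; limma's adjusted p = 0.127 in the linear fit). IL6 was higher at each later passage in both cultures. Of the 25 measured cytokines and chemokines, 19 had a mean change below 0, beside 49.5% of all genes. The change was below 0 for 13 of the 25 in ALI and for 19 in SMC, beside 44.8% and 52.0% of all genes. The neutrophil chemokine AMCF-II, lower in both cultures, had a mean change of -0.54 (adjusted p = 0.155 from limma).

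Most genes of proliferation and DNA replication had lower values at P113, although no member was called. Of 30 measured members, 28 had a mean change below 0, beside 49.5% of all genes, and 15 (50%) were lower at an unadjusted p under 0.05 beside 6.08% of all genes. Only CDC25B, a phosphatase that activates cyclin-dependent kinases, was higher at that p, beside 7.73% of all genes, with 0.88 in ALI and 0.07 in SMC. The median change of the list was -0.40 log2 units, -0.15 in ALI and -0.58 in SMC, beside 0.03 and -0.01 for all genes. The change was below 0 for 23 of 30 members in ALI and for 28 in SMC, beside 44.8% and 52.0% of all genes. The median step from P109 to P111 was -0.23 in ALI and -0.35 in SMC. From P111 to P113 it was 0.02 in ALI and -0.20 in SMC.

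CENPF, a kinetochore protein of dividing cells, led this list. It measured 9.20, 8.90 and 8.61 in ALI and 9.88, 9.52 and 8.85 in SMC, lower at each later passage, with a change of -0.81 (standard error 0.15; limma's adjusted p = 0.135 in the linear fit and 0.0690 in the contrast). TOP2A, the DNA topoisomerase of replicating cells, measured 10.25, 9.70 and 9.73 in ALI and 10.90, 10.40 and 10.16 in SMC, a change of -0.63 (adjusted p = 0.176 in limma's linear fit). The mitotic kinase gene AURKA differed by -0.22 in ALI and -1.14 in SMC, the cyclin gene CCNA2 by -0.23 and -0.85, the thymidylate synthase gene TYMS by -0.52 and -0.87, and PCNA, the sliding clamp of DNA polymerase, by -0.26 and -0.77. RRM2, a subunit of ribonucleotide reductase, differed by 0.37 in ALI and -1.18 in SMC.

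The count of lower members rested on the SMC array of P109, in which most of these genes had their highest level. Without that array 2 members were lower at an unadjusted p under 0.05, without the SMC array of P113 there were 4, and without the ALI array of P113 there were 21. A fit without the culture type gave 4, and one without moderation of the variance gave 6. The median of the list stayed between -0.60 and -0.26 when single arrays were left out.

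**Figure D4:**
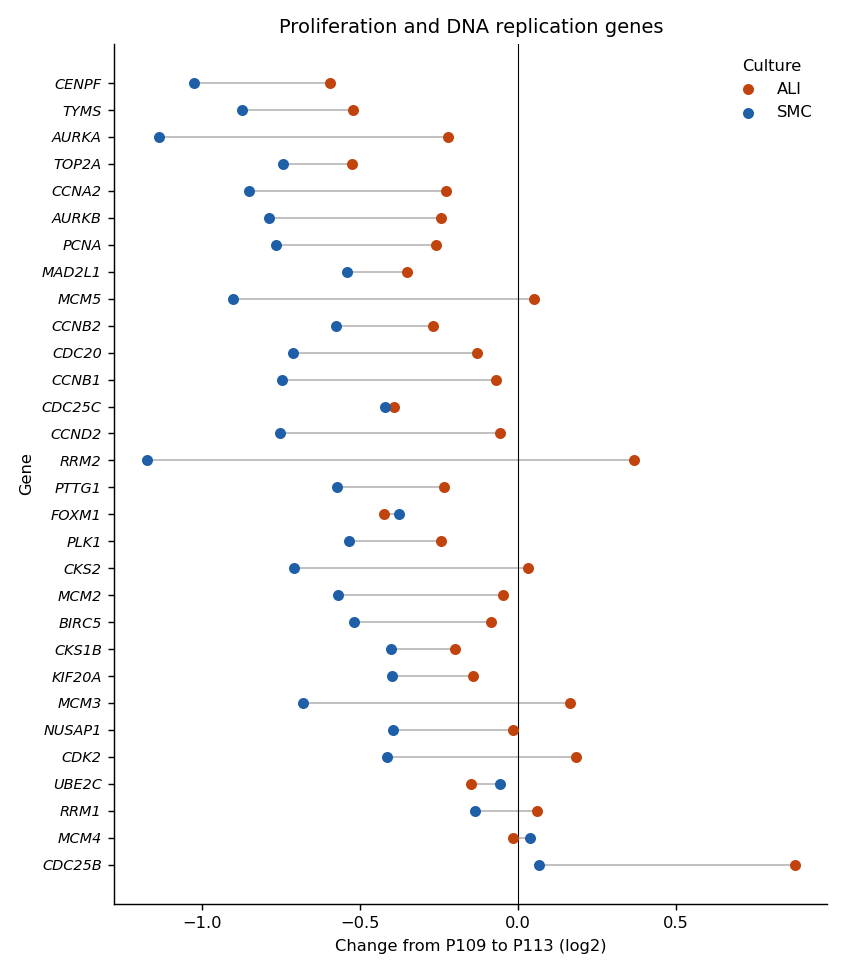
Change from P109 to P113 in log2 units for the 30 measured members of the proliferation and DNA replication list, ordered by the mean of both cultures. Each point is the difference of 2 arrays of 1 culture; in SMC 28 of 30 members lie below 0 and in ALI 23 of 30.

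Genes of cholesterol synthesis and uptake also had mostly lower values at P113 than at P109. Their median steps from P109 to P111 and from P111 to P113 were -0.20 and 0.16 in ALI, and -0.12 and -0.17 in SMC. HSD17B7, an enzyme of the sterol pathway, measured 8.77, 8.57 and 7.998 in ALI and 8.29, 7.97 and 7.23 in SMC, lower at each later passage. Its change was -0.91 (standard error 0.15; limma's adjusted p = 0.127 in the linear fit and 0.0486 in the contrast), and it was the only member of 19 called in the contrast. NPC1, which exports cholesterol from lysosomes, measured 9.02, 9.21 and 8.37 in ALI and 10.12, 9.50 and 8.79 in SMC, a change of -0.99 (adjusted p = 0.162 in limma's linear fit). INSIG1, a sterol sensor that retains SREBP in the endoplasmic reticulum, differed by -0.88 in ALI and -0.86 in SMC, and its second, dimmer probe set by 0.07 on average.

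The epoxidase gene SQLE differed by -0.60 and -0.50 in ALI and SMC, and MYLIP, which targets the LDL receptor for decay, by 0.43 and 0.35. Of the 19 members, 14 had a mean change below 0, beside 49.5% of all genes. The change was below 0 for 14 of the 19 in ALI and for 13 in SMC, beside 44.8% and 52.0% of all genes. At an unadjusted p under 0.05, 5 (26.3%) were lower, beside 6.08% of all genes, and 1 (5.26%) was higher, beside 7.73%. The median was -0.22, and it ran from -0.35 without the ALI array of P113 to -0.08 without the SMC array of P113. Leaving out the SMC array of P109 left 2 lower members and leaving out the ALI array of P111 gave 8. A fit without moderation of the variance left 1.

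The list of endoplasmic reticulum stress and ATF4 targets, genes induced by misfolded proteins or amino acid shortage, had a median of -0.08 over 22 members, 0.03 in ALI and -0.19 in SMC. At an unadjusted p under 0.05, 3 (13.6%) were lower, beside 6.08% of all genes, and 1 (4.55%) was higher, beside 7.73%, while none was called. ASNS, asparagine synthetase, measured 10.47, 10.74 and 9.74 in ALI and 11.56, 11.44 and 10.54 in SMC, a change of -0.88 (adjusted p = 0.229 in limma's linear fit and 0.0546 in its contrast). MTHFD2, a mitochondrial enzyme of folate metabolism, differed by -0.57 in ALI and -0.82 in SMC, and ATF4 itself by -0.36 and -0.56. The higher member was VLDLR, a lipoprotein receptor, at 0.77 and 0.53, whose second, dimmer probe set differed by 0.16 and 0.10. Leaving out the SMC array of P113 left 1 lower member, and leaving out the ALI array of P113 moved the median to -0.20. The cationic amino acid transporter SLC7A1, of the list of solute carriers, differed by -0.83 and -0.52. CTH, the cystathionine lyase of cysteine synthesis, at -0.72 and -0.99, and GARS, glycyl-tRNA synthetase, at -0.59 and -0.67, are on no list and were chosen after their values were seen.

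Genes induced by hypoxia moved in both directions. ANKRD37, a hypoxia-induced ankyrin repeat protein, measured 7.17, 7.25 and 7.82 in ALI and 7.90, 8.05 and 9.42 in SMC, a change of 1.09 (adjusted p = 0.178 in limma's linear fit). MXI1, an antagonist of MYC, was 0.83 higher in ALI and 1.27 in SMC, and CITED2, which competes with HIF for its coactivator, 0.58 and 0.65. VEGFA, the endothelial growth factor, was 0.41 and 0.56 higher. Its dimmer probe sets differed by 0.35, 0.03 and -0.004 on average. CA9, a carbonic anhydrase, differed by -0.26 and -0.48, and HMOX1, heme oxygenase, by -0.35 and -0.24. Of 18 members, 4 were higher (22.2%) and 3 lower (16.7%) at an unadjusted p under 0.05, beside 7.73% and 6.08% of all genes. The median was 0.14, and it ran from 0.04 without the SMC array of P113 to 0.25 without the ALI array of P109. Leaving out the SMC array of P109 or of P113 left 0 lower members. A fit without moderation of the variance left 1 higher and 1 lower member.

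Genes of the extracellular matrix and its proteases had 33 of 41 mean changes below 0, beside 49.5% of all genes, and a median of -0.13. The change was below 0 for 30 of the 41 in ALI and for 30 in SMC, beside 44.8% and 52.0% of all genes. At an unadjusted p under 0.05, 5 members (12.2%) were lower, beside 6.08% of all genes. Beside PLAU these included MMP13, a collagenase with a mean log2 level of 4.82, at -0.81 in ALI and -0.62 in SMC, the laminin chain gene LAMC1 at -0.37 and -0.70, and THBS1, thrombospondin, at -0.81 and -0.19. The dimmer probe sets of MMP13, LAMC1 and THBS1 differed from these in size, and for LAMC1 and THBS1 1 each had a change above 0. Leaving out the ALI array of P113 left 2 lower members, and so did the mean over each gene's probe sets. A fit without moderation of the variance also left 2. Among 16 genes of mesenchymal transition 15 had a mean change below 0, beside 49.5% of all genes. The change was below 0 for 14 of the 16 in ALI and for 11 in SMC, beside 44.8% and 52.0% of all genes. The median of the 16 was -0.13. At an unadjusted p under 0.05 in limma's linear fit, 3 (18.8%) were lower, beside 6.08% of all genes. Leaving out the SMC array of P111 or of P113 left 1 of these, and a fit without moderation of the variance left 0. SNAI1, a repressor of E-cadherin, differed by -0.67 and -0.53. In the same arrays CDH1, the gene of E-cadherin, differed by 0.05 in ALI and -0.25 in SMC.

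Epithelial and enterocyte genes had list medians slightly below 0. KRT18, a keratin of simple epithelia, differed by -0.28 in ALI and -0.73 in SMC, OCLN, the tight junction protein occludin, by -0.25 and -0.50, and EPCAM by -0.04 in both cultures. The list of epithelial junctions and keratins had a median of -0.07 over 21 members, with 3 (14.3%) lower and 1 (4.76%) higher at an unadjusted p under 0.05, beside 6.08% and 7.73% of all genes. Without the SMC array of P109 or of P113 only 1 was lower. That of enterocyte and brush border genes had a median of -0.13 over 24 members, 4 of them lower (16.7%, beside 6.08% of all genes), including VIL1 at -0.61 and -0.24 and the transcription factor gene HNF4A at -0.43 and -0.50. Without the ALI array of P109 only 1 was lower, and the median ran from -0.19 to -0.04 over the arrays left out. A fit without moderation of the variance also left 1 lower. Of 10 measured genes of telomere maintenance, 0 were past an unadjusted p of 0.05 in limma's linear fit, and the lowest p belonged to DKC1, a component of telomerase, at -0.10 and -0.65 (unadjusted p = 0.112). A second DKC1 probe set of like brightness differed by 0.25 in ALI and -0.31 in SMC.

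Housekeeping lists had medians near 0. The 58 cytosolic ribosomal protein genes had a median of 0.03 and none past an unadjusted p of 0.05 in limma's linear fit. Of these, 26 were below 0 in ALI and 10 in SMC, beside 44.8% and 52.0% of all genes. RPL30, with a mean log2 level of 5.23, was at least 1.5-fold lower in both cultures, at -0.62 in ALI and -0.78 in SMC. The 46 oxidative phosphorylation genes had a median of 0.05 and 34 mean changes above 0, beside 50.5% of all genes. In ALI 8 of the 46 were below 0 and in SMC 21. CYCS, cytochrome c, was the only one past an unadjusted p of 0.05 in that fit, at -0.45. Markers of other cell types had medians of -0.05 for 17 fibroblast and smooth muscle markers and -0.08 for 18 endothelial and immune markers. At an unadjusted p under 0.05, 2 of the latter (11.1%, beside 7.73% of all genes) were higher, namely CD3E, of T cells, at 0.67 in ALI and 0.16 in SMC, and TEK, an endothelial receptor, at 0.86 and 0.65. Both other TEK probe sets, which were dimmer, differed by -0.16 and 0.14. Of the 17 fibroblast and smooth muscle markers 1 (5.88%) was higher at that p and 1 (5.88%) lower, beside 7.73% and 6.08% of all genes. The higher one was PDGFRB, a growth factor receptor, at 0.20 and 1.15, whose second, dimmer probe set differed by -0.17. The lower one was TAGLN. The part of other cell types in the results was not tested. The medians of the other lists lay between -0.13 and 0.05, and no member of any of the 28 lists reached an adjusted p under 0.05 in the linear fit.

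**Figure D5:**
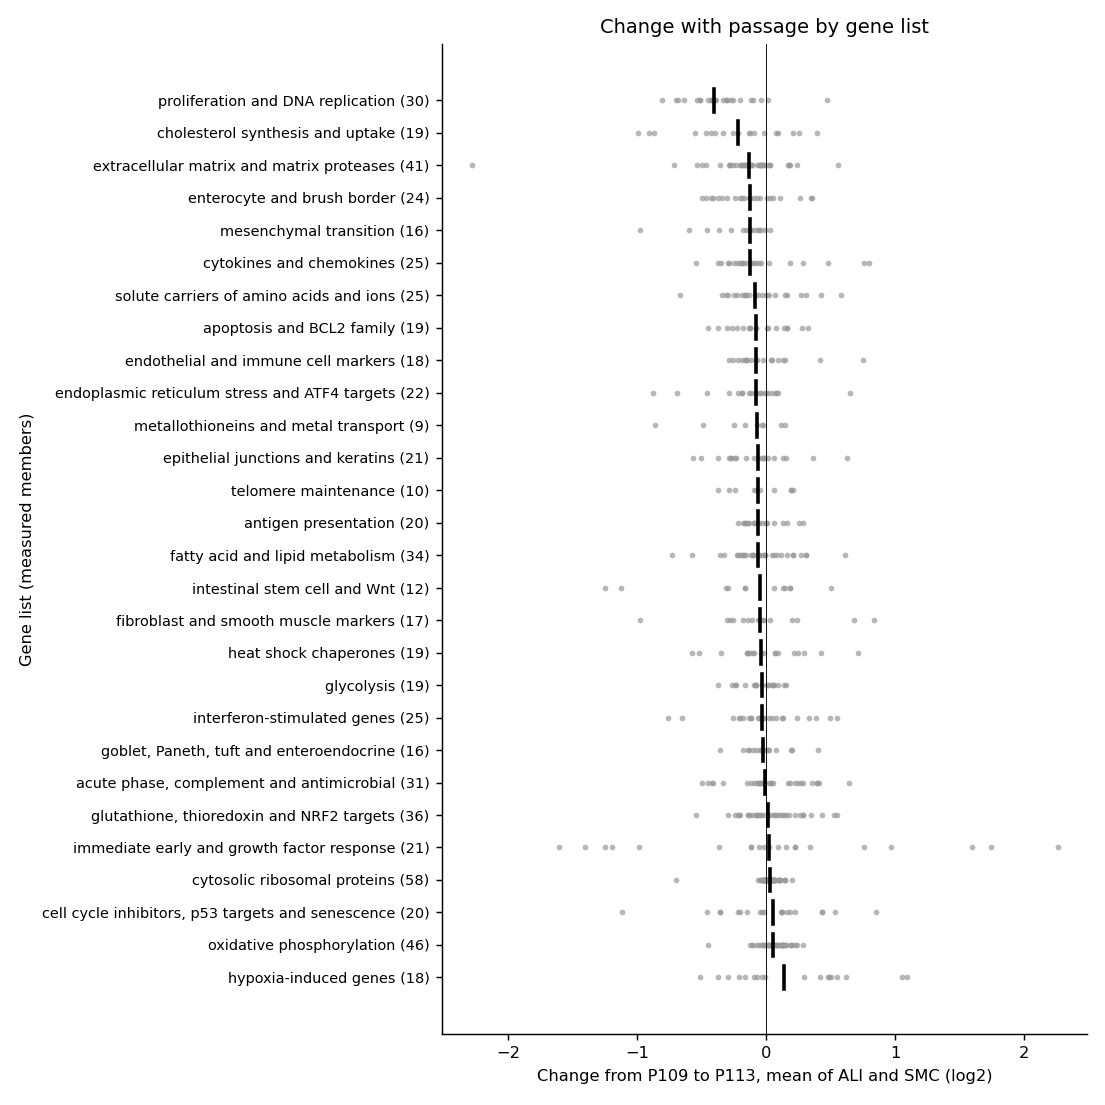
Change from P109 to P113 (mean of ALI and SMC, log2 units) of every measured member of 28 gene lists, 1 grey point per gene, with the list's median as a black bar and the number of measured members in parentheses. The medians run from -0.40 for the proliferation list to 0.14 for the hypoxia list (0.04 without the SMC array of P113), and the immediate early genes lie on both sides of 0, from -1.61 to 2.26.

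The P111 arrays show how the difference between P109 and P113 was spread over both steps. In limma's factor fit the step from P109 to P111 had 0 called probe sets (0%), with 1540 at an unadjusted p under 0.05 and a lowest adjusted p of 0.154. The step from P111 to P113 had 26 called higher (0.108%) and 18 lower (0.075%), with 3500 at an unadjusted p under 0.05. Both steps share the P111 arrays, and the difference between them was not tested.

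Of the 53 genes higher in both cultures, 18 had P111 between P109 and P113 in both cultures, and of the 43 lower ones 14 did. BANP, TMEM260, KIAA0586, MTFMT and IL6 were among the former, and IER3, HBEGF, AREG, TNFRSF12A, CENPF and HSD17B7 among the latter. For the higher genes, P111 had reached a median of 12.5% of the change in ALI and 30.0% in SMC. For the lower genes these medians were -3.02% in ALI and 43.4% in SMC. In ALI single lower genes went both ways from P109 to P111, such as INSIG1 at -1.08 and TAGLN at 0.65. There 17 of the 43 had P111 between both other passages. FOS, EGR1 and IER2 were lower at P111 than at P109 in SMC and higher in ALI.

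The change with passage was compared between ALI and SMC in limma's interaction test, which called 0 of 23999 probe sets (0%), with 530 at an unadjusted p under 0.05 and a lowest adjusted p of 1. This leaves 2 residual degrees of freedom, and it does not show that both cultures changed alike. Passage, the experiment in which its cells were grown and the processing of its arrays cannot be told apart. Each passage was taken as 1 experiment on the passage label alone.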

How the data were processed

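Total RNA of IPEC-1 cells was hybridized to 6 GeneChip Porcine Genome Arrays. The authors' methods give Affymetrix GCOS and GC-RMA. The version of GCOS in the submitters' processing notes is 1.1.1. The deposited table holds log2 values (2.50 to 14.87), names no normalization and comes without detection calls. GC-RMA estimates dim probe sets with little certainty, so low levels are not shown to be above background. No further scaling was applied. Linear models with moderated variances (limma 3.58.1, R 4.3.3) had passage as a linear term and culture type as block, over 23999 probe sets without the 124 Affymetrix controls. Adjusted p-values are Benjamini-Hochberg over all probe sets, with 0.05 as threshold. Of the probe sets, 10069 had 1 gene symbol, 198 several and 13732 none, and the brightest of 1 symbol stood for each of 6765 genes. Symbols came from the platform annotation, and 5 list genes were matched through a synonym. The deposited values give no depth, and the number of arrays limits the precision. The fits were tested on simulated data.

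The members and the 28 gene lists were chosen with earlier results of these data known. Named by rule were, per direction, the 10 genes of lowest p among those moving 1.5-fold the same way with a mean log2 value above 6, plus the 2 members of lowest p per list. Not all genes that the rule names are described here. Genes called in the contrast, and other members named beside them, were chosen after their values were seen. Alternatives were other fits, scalings, filters on dim probe sets, variance models, the methods' t-test and leaving out each array.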

Additional observations from a re-analysis of the deposited data

How the results depend on the processing

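No paired analysis was possible because the replicate numbers are the passages themselves, so that a block of replicates would take up the effect under study, and the culture type is the block in its place. With passage as a factor, 43 probe sets were called higher and 39 lower (9 and 5 genes). Least squares without moderation called 1 probe set higher, and the methods' t-test of P113 against P109, with 1768 probe sets at its unadjusted threshold, called 1 lower after Benjamini-Hochberg adjustment. Leaving out single arrays gave 0 to 105 probe sets called higher and 0 to 74 lower, and 0 to 24 genes higher and 0 to 14 lower. The upper ends came without the ALI array of P111, which lies off the line between P109 and P113, and the other 5 arrays gave 0. The counts of called probe sets stayed at 0 without the culture type, with separate slopes, after quantile normalization or median centring, with both filters and with an intensity trend, where the lowest adjusted p ran from 0.0515 to 0.231. The counts that moved 1.5-fold the same way stayed within 1.5 times of those given under the scalings and filters run, as did the 0 calls between cultures. All 71 named genes kept their direction under every alternative run, but several of these runs could not change it. The estimated change is the same by design without the culture type, as a factor, with separate slopes, an intensity trend or no moderation. The same holds for the methods' t-test and, for genes that pass, the filters on dim probe sets. The genes were also named from these same data. Of the 71 named genes, 11 were called in the factor contrast and 24 without the ALI array of P111. Of 448 list medians under alternatives, 101 moved by more than the SD of both cultures' medians. Part of the 448 could not move. Medians are the same by design without the culture type, as a factor, with separate slopes, an intensity trend or no moderation. The hypoxia list reached 0.45 with a mean log2 value above 6, and the ATF4 list 0.0006 without the SMC array of P109. Signals with no detection call limit what can be said of dim genes.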
